A study of Rattus norvegicus with 9 samples.

Results

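The chemokines and chemokine receptors described here were the 48 genes whose identifiers begin with Ccl, Ccr, Cxcl or Cxcr followed directly by a digit, out of 23026 genes in the deposited tables. They comprised 31 ligands (19 of the CC class and 12 of the CXC class) and 17 receptors (11 CC and 6 CXC), and were chosen by name, not by any measured value. Their mRNA was measured by RNA sequencing of bone from female Sprague–Dawley rats in 3 groups of 3 libraries, bought at 8 weeks of age. In the Sham group the fat beside the ovary was removed and the ovaries were left in place. In the OVX group both ovaries were removed, which models postmenopausal osteoporosis, and these rats received the carboxymethyl cellulose (CMC-Na) vehicle by gavage. In the OVX-AS-IV-High group ovariectomized rats received astragaloside IV (AS-IV), a saponin of Astragalus root, at 80 mg/kg. The last are called the treated libraries below. Daily gavage began 6 weeks after surgery and lasted 8 weeks in each group. The labels give CMC-Na at 1% for OVX, but at 1%, 2% and 3% for Sham replicates 1, 2 and 3, where the methods of the study give 1%, and all Sham libraries were treated as replicates here. The tissue is labelled bone and came, per the methods, from a frozen femur, so marrow cells, bone cells and any attached tissue were sequenced together.

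Chemokines are small secreted proteins that guide the movement of white blood cells. They bind receptors with a serpentine fold in the cell membrane that signal through inhibitory G proteins, and the spacing of the first cysteines divides them into CC and CXC ligands. In bone marrow they hold stem cells and immature neutrophils in place, release monocytes and neutrophils to the blood, and draw osteoclast precursors to bone surfaces. One ligand often binds several receptors, and one receptor several ligands.

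The RefSeq promoter table (build GRCr8) held a promoter for 35 of the 48 genes. The last 120 bases before the gene start are printed for 3 neighbouring ligands of Cxcr2, the receptor of neutrophils, and for Cxcl9, the ligand of this set with the smallest p after ovariectomy. Capitals mark the longest run of letters that any pair of these 4 stretches shared.
Cxcl1, chr14:17479322-17479441, minus strand: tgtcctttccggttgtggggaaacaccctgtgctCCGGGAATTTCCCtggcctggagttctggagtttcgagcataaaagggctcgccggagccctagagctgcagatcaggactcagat
Cxcl2, chr14:17467256-17467375, minus strand: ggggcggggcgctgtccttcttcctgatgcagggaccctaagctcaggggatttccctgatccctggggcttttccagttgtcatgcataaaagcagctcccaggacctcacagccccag
Cxcl6, chr14:17596418-17596537, minus strand: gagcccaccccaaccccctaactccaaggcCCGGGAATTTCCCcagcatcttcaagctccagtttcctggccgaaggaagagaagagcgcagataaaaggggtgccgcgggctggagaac
Cxcl9, chr14:16007046-16007165, plus strand: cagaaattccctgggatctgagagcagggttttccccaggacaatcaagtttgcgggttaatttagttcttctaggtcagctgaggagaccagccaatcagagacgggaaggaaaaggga
Cxcl1 and Cxcl6 shared a run of 13 bases, which began 86 bases before the start of Cxcl1 and 90 bases before that of Cxcl6. Over the 250 bases before each start, on both strands, this run was found in 2 of all 33469 promoters of the table, those of Cxcl1 and Cxcl6. The longest runs that Cxcl1 and Cxcl2 shared had 9 bases, and those of Cxcl2 and Cxcl6 had 7. The share of G and C was 56.7% in the Cxcl1 stretch, 60.0% in those of Cxcl2 and Cxcl6, and 49.2% in that of Cxcl9. A shared run is a description of letters and shows no binding.

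The libraries held 34874880 to 37298250 counts each, so that 3 counts, the limit that a count of 0 allows, is a small share of any library. Of the 48 genes, 36 passed the filter on low counts and were tested, and 12 did not. The markers of neutrophils, B lineage cells, osteoblasts and osteoclasts were present in each library, except the neutrophil marker Ltf. Ltf was at 0 to 0.49 CPM (counts scaled to a common library size). Those of skeletal muscle were also present, at a summed level of 570 to 9954 CPM. One library stood apart in several genes of this set. The library OVX replicate 2 held 25.4 CPM of Cd8a and 10.2 CPM of Cd3e, both T cell markers, where the other libraries held at most 8.18 and 3.85 CPM. The fold changes that it moved most are given below with and without it. In RNA from whole tissue, fewer cells of a type and less RNA per cell cannot be told apart.

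Levels between genes were compared as FPKM, the deposited values per gene length and depth. A pair of genes that work together in marrow stood first: Cxcl12, the stromal ligand that keeps stem cells and neutrophils in marrow, had a mean of 204 FPKM over the 9 libraries, and its receptor Cxcr4 had 170 FPKM. Cxcl14, a tissue chemokine, followed at 144 FPKM and Ccl6, a rodent chemokine of myeloid cells, at 114 FPKM. These 4 genes gave 80.3% of the summed FPKM of the 48 genes, and Cxcl12 alone gave 26.0%. The receptors of neutrophils and monocytes came next, with 22.7 FPKM for Cxcr2, 21.1 for Ccr2 and 19.9 for Ccr1. The ligand Ccl5 had a mean of 20.9 FPKM over all libraries and of 11.0 FPKM without OVX replicate 2. Of the 48 genes, 22 had a mean of 1 to 100 FPKM and 22 a mean under 1 FPKM.

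**Figure D1:**
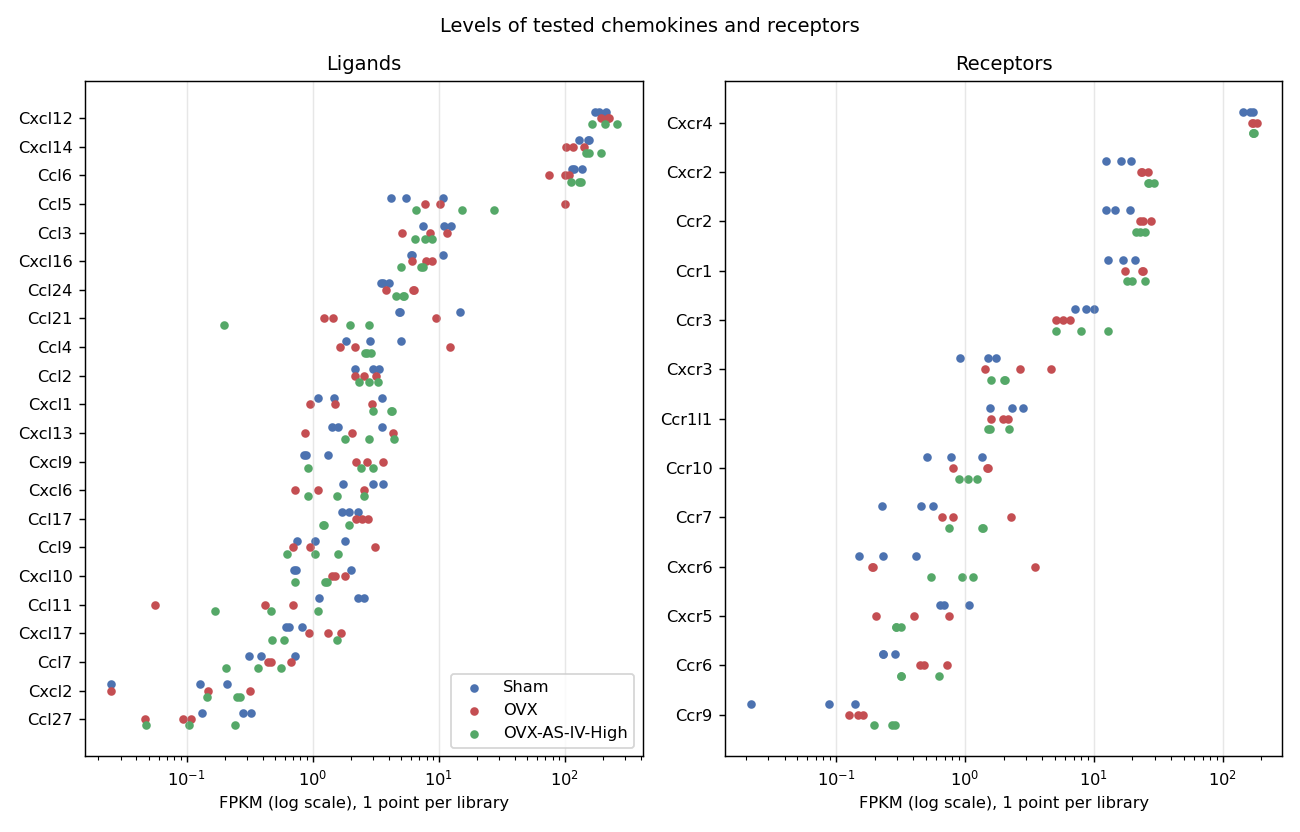
FPKM (log axis) of tested ligands (left) and receptors (right), 1 point per library, coloured by group and ordered by mean level. Cxcl12 and Cxcr4 lead their panels at means of 204 and 170 FPKM, and Ccl5, Ccl21, Ccl11, Cxcl2 and Cxcr6 scatter widely between libraries of a group.

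Cxcl12 and Cxcr4 had similar levels in the 3 groups. Cxcl12 was at 1278, 1234 and 1464 CPM in the Sham libraries, 1310, 1497 and 1518 CPM in OVX, and the treated libraries had 1165, 1445 and 1793 CPM. Cxcr4 was at 252 to 289 CPM in Sham, 290 to 308 CPM in OVX and 296 to 305 CPM in OVX-AS-IV-High. The OVX libraries lay above the Sham libraries for Cxcr4 by a narrow margin, with a log2 fold change (log2FC) of 0.12 ± 0.086 (SE, n = 3 per group), and the groups overlapped for Cxcl12 (log2FC 0.12 ± 0.159).

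The first comparison asked what ovariectomy did to these genes. In OVX vs. Sham, 7 of the 36 tested genes passed the thresholds given in the results of the study, an unadjusted p under 0.05 with an absolute log2FC over 1, beside 3.11% of all 16874 genes tested. The methods of the study state a log2FC of 0.58 instead, at which 9 passed, beside 6.96% of all genes. Higher in OVX were the ligands Ccl5 and Cxcl9 and the receptors Ccr6, Ccr7 and Cxcr3, 5 genes beside 1.08% of all genes called higher. Lower in OVX were the ligands Ccl11 and Ccl27, 2 genes beside 2.03% called lower. Ccl27 entered the test mainly through Sham, where 3 libraries exceeded the minimum of the filter on low counts against 0 in OVX. Without Sham replicate 2 the count was 4 (Ccl11, Ccr6, Ccr7 and Cxcl9), and without OVX replicate 2 it was 3. Over all genes these fits gave 387 and 466, against 525 with all libraries. By p alone 12 genes were under 0.05, with 9 higher and 3 lower, beside 16.4% of all genes. After Benjamini-Hochberg adjustment over all genes tested, edgeR called 0 of the 36 and 0 of all genes, and the smallest adjusted p among the 36 was 0.143. DESeq2, run as an alternative, gave an adjusted p under 0.05 to Ccr2 and Cxcr2 and to 834 genes in all. Limma on log2(FPKM + 1) gave it to 0 of the 36, with 12 at an unadjusted p under 0.05. The share of all genes at that unadjusted p was not counted for limma.

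The libraries of OVX and Sham did not overlap for 11 of the 36 genes, 7 higher and 4 lower, beside 23.3% of all genes tested. The median log2FC of the 36 was 0.32, with 23 above 0, where the median of all genes was -0.01 and 49.2% were above 0. The set was less abundant than most genes, with a median of 2.40 CPM against 18.9 CPM over all genes tested, and its median absolute log2FC of 0.55 stood beside 0.22 for all genes.

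**Figure D2:**
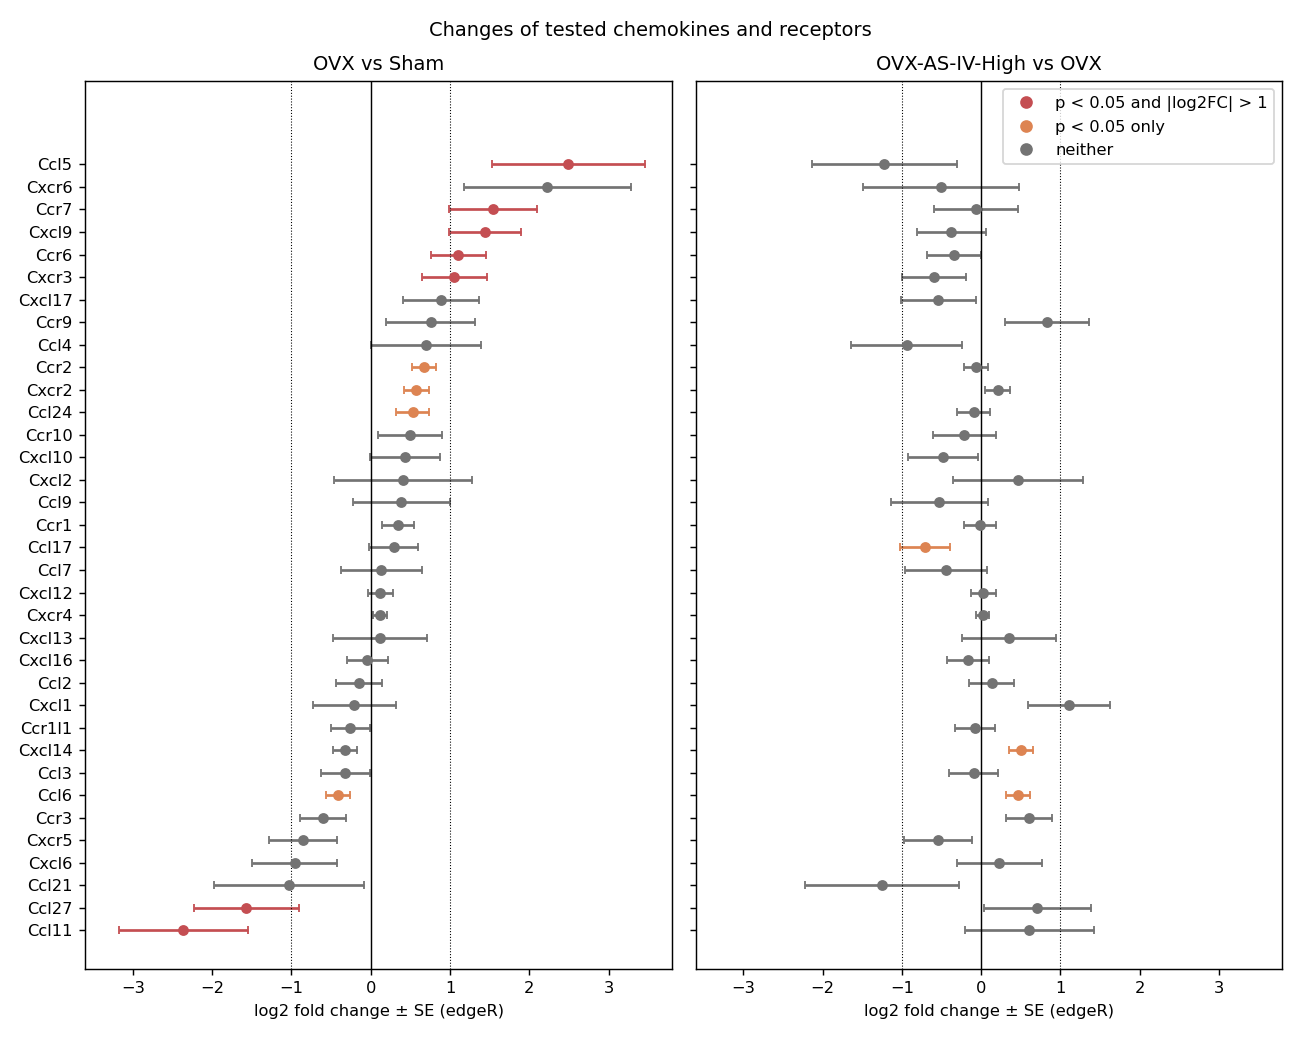
Log2FC ± SE from edgeR for tested genes of the set in OVX vs. Sham (left) and OVX-AS-IV-High vs. OVX (right), ordered by the left panel. Points in red passed both thresholds and points in orange had an unadjusted p under 0.05 alone, and the right panel holds 0 red and 3 orange points.

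Among the eotaxins, which attract eosinophils through Ccr3, Ccl11 was the gene with the largest fall. Its counts were 89, 78 and 39 in the Sham libraries and 2, 25 and 15 in those of OVX, and the treated libraries had 17, 40 and 6. No OVX library reached the lowest Sham library. The log2FC in OVX vs. Sham was -2.37 ± 0.813 (SE) with an edgeR adjusted p of 0.214. Ccl11 passed the thresholds in 9 of 9 fits that each left out 1 library, at log2FC between -3.05 and -1.86. Of these fits, 3 left out a treated library and so kept all OVX and Sham libraries.

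Ccl24, the other tested eotaxin, went the opposite way, at 183, 184 and 211 counts in Sham against 333, 340 and 206 in OVX and 249, 285 and 276 with AS-IV. The log2FC was 0.53 ± 0.210 in OVX vs. Sham (edgeR adjusted p = 0.262), and 1 OVX library lay within the Sham range. Ccl26, the remaining eotaxin, was at 1 count in 1 library and 0 in the others. Their receptor Ccr3 was at 36.0, 26.7 and 31.8 CPM in the Sham libraries and 20.8, 23.1 and 18.5 CPM in OVX, which did not overlap, with a log2FC of -0.60 ± 0.290 (edgeR adjusted p = 0.334). In OVX-AS-IV-High it ranged from 18.3 to 47.6 CPM, across both other groups.

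The 8 listed markers of eosinophils, basophils and mast cells were all measured, and their summed level was 885 to 1680 CPM in Sham, 561 to 761 CPM in OVX and 648 to 834 CPM in OVX-AS-IV-High. Of the 8, 5 had a lower mean in OVX than in Sham, and Siglec8, Cpa3 and Fcer1a had a higher one. The 9 measured skeletal muscle markers summed to 1639 to 9954 CPM in Sham and 1656 to 3557 CPM in OVX. The first sum did not overlap between Sham and OVX, so that as a covariate it cannot be told apart from ovariectomy.

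With the eosinophil, basophil and mast cell sum as a covariate, 0 of the 7 genes named above passed the thresholds by edgeR. Over all genes 397 passed in this fit and 379 with the muscle sum, against 525 without a covariate. With the eosinophil, basophil and mast cell sum the log2FC of the 7 were -1.94 for Ccl11, -0.72 for Ccl27, 1.44 for Ccl5 and 1.33 for Cxcl9. They were 0.52 for Ccr6, 0.13 for Ccr7 and 0.66 for Cxcr3. Other genes passed in their place, namely Ccr2 (1.08), Cxcl10 (1.72) and Cxcr5 (-1.55). With the muscle sum as a covariate 1 of the 7 passed, Cxcl9 at 1.23, and the log2FC were -1.86 for Ccl11, -0.88 for Ccl27, 2.13 for Ccl5, 0.90 for Ccr6, 1.31 for Ccr7 and 0.86 for Cxcr3. The direction of each of these was that of the fit without a covariate.

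Of the 11 CC ligands that attract monocytes and T cells, 8 were tested. In OVX vs. Sham 1 was past the thresholds, the T cell attractant Ccl5, at 227, 112 and 87 counts in the Sham libraries and 215, 2168 and 166 in OVX. The value rested on OVX replicate 2, and the other OVX libraries lay within the Sham range. The log2FC of Ccl5 was 2.49 ± 0.960 with all libraries (edgeR adjusted p = 0.249) and 0.38 without that library.

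Ccl6 was lower in OVX by a small step. It was at 186, 168 and 159 CPM in the Sham libraries and 137, 101 and 148 CPM in OVX, groups that did not overlap. The log2FC was -0.41 ± 0.151 (edgeR adjusted p = 0.235), and -0.26 without OVX replicate 2. With the eosinophil, basophil and mast cell markers as a covariate it was -0.09.

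The other 6 tested ligands of this group had p above 0.05 in OVX vs. Sham. Ccl3 and Ccl4, the macrophage inflammatory proteins, had log2FC of -0.32 ± 0.309 and 0.70 ± 0.695. Without OVX replicate 2 that of Ccl4 was -0.77, the opposite sign. Ccl4 was at 292 counts in OVX replicate 2 and at 39 to 116 in the other Sham and OVX libraries. Ccl2, the main monocyte attractant, was at 60 to 94 counts in Sham and 61 to 91 in OVX, which overlapped. Ccl7, Ccl9 and Ccl17 had log2FC between 0.13 and 0.39.

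The homeostatic CC ligands position lymphocytes in resting tissue. Ccl27, a ligand of Ccr10, was at 23, 26 and 11 counts in the Sham libraries and at 9, 4 and 8 in those of OVX, and the treated libraries had 21, 9 and 4. The OVX libraries lay below the Sham libraries, with a log2FC of -1.57 ± 0.660 (edgeR adjusted p = 0.281). Its reads are uncertain, since the gene overlaps Il11ra1 and the use of strand in counting is not stated. It passed the filter on low counts mainly through Sham, where 3 libraries exceeded the minimum against 0 in OVX. Of 9 fits that left out 1 library, Ccl27 passed the thresholds in 3. These were the fits without Sham replicate 3 and without OVX-AS-IV-High replicate 1 or 3, of which the treated libraries are not in this comparison. Each fit without an OVX library lost the call.

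Ccl21, a ligand of Ccr7, was at 443, 145 and 145 counts in the Sham libraries and at 287, 45 and 38 in those of OVX, and the treated libraries had 87, 61 and 6. The Sham and OVX ranges overlapped through OVX replicate 1, and the log2FC was -1.03 ± 0.947 with all libraries. It ran from -2.62 without that one to -0.33 without Sham replicate 1, and was 0.99, of opposite sign, with the eosinophil, basophil and mast cell covariate.

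The interferon-inducible CXC ligands attract activated T cells and NK cells through Cxcr3. Cxcl9 was at 26, 17 and 17 counts in the Sham libraries and at 54, 73 and 45 in those of OVX, and the treated libraries had 19, 50 and 61. Every OVX library lay above every Sham library, and the log2FC was 1.44 ± 0.453 (edgeR adjusted p = 0.189). It passed the thresholds in 9 of 9 fits that left out 1 library, at 1.25 to 1.64, and with 1 of the 2 covariates. The 9 fits include 3 that left out a treated library, which is not in this comparison. Cxcl10 had a log2FC of 0.43 ± 0.442 with overlapping groups. Without Sham replicate 1 it was 1.07 and passed, and Cxcl11 held at most 9 counts in any library.

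**Figure D3:**
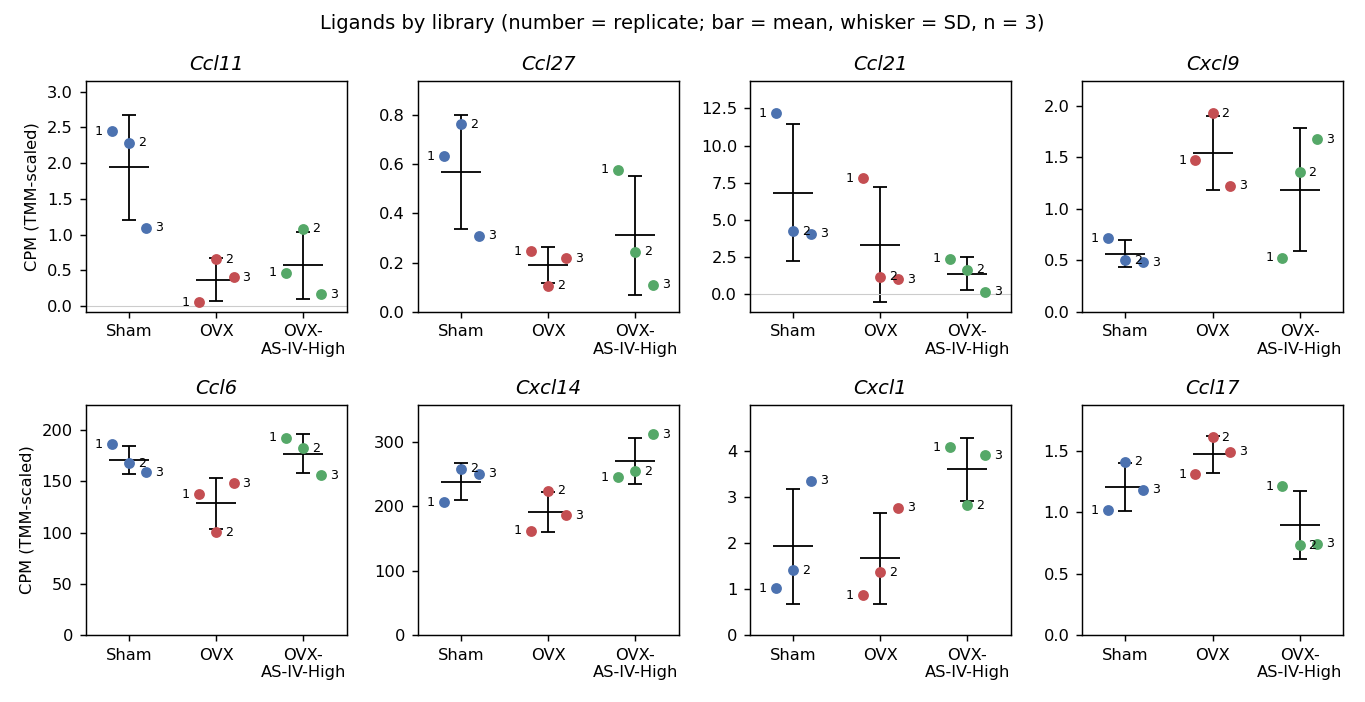
TMM-scaled CPM of 8 ligands in each library, with replicate numbers beside the points, and the mean (bar) and SD (whisker) of 3 libraries per group. Ccl11 and Ccl27 were lower and Cxcl9 higher in the OVX libraries than in the Sham libraries without overlap, and Ccl6, Cxcl14 and Cxcl1 were higher in the OVX-AS-IV-High libraries than in the OVX libraries without overlap.

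The 4 CXC ligands of neutrophil receptors had low levels in bone at rest. Cxcl1 was at 37, 48 and 119 counts in the Sham libraries and 32, 52 and 102 in OVX, so the groups covered the same range. Cxcl6 was at 101, 118 and 58 counts in the Sham libraries and 87, 38 and 25 in OVX (log2FC -0.96 ± 0.537, edgeR adjusted p = 0.386). Without OVX replicate 1 it was -1.64 and passed. Cxcl2 held 1 to 13 counts per library and Cxcl3 at most 2.

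The 5 homeostatic and tissue CXC ligands were all tested, and 0 had an edgeR p under 0.05 in OVX vs. Sham, adjusted or not. Cxcl14 was at 206, 258 and 250 CPM in the Sham libraries and 162, 224 and 187 CPM in OVX, with a log2FC of -0.32 ± 0.150 (edgeR adjusted p = 0.323). It was -0.43 with the muscle covariate and -0.68 with the other, each at an unadjusted edgeR p under 0.05. Cxcl13, the B cell attractant, and Cxcl16 had log2FC of 0.12 and -0.04. Cxcl17, a mucosal chemokine, was at 24 to 33 counts in Sham and 38 to 69 in OVX, which did not overlap (log2FC 0.89 ± 0.479, edgeR adjusted p = 0.373).

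Receptors were more often higher than lower in OVX. Among the 9 tested CC receptors the median log2FC was 0.67, with 7 above 0, and among the 5 tested CXC receptors it was 0.57, with 4 above 0. Of all genes tested 49.2% were above 0. The 4 include Cxcr6, whose log2FC was -0.50 without OVX replicate 2. Ccr2, which lets inflammatory monocytes leave the marrow, was at 93.7, 75.5 and 62.4 CPM in the Sham libraries, 138, 111 and 120 CPM in OVX, and the treated libraries had 119, 127 and 107 CPM. The Sham libraries lay below the 6 others. The log2FC in OVX vs. Sham was 0.67 ± 0.153 (edgeR adjusted p = 0.143), the smallest p of the set and below the threshold of 1 in size.

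Cxcr2, the receptor through which neutrophils are released, was also lowest in Sham. It was at 16.3, 26.2 and 21.7 CPM in the Sham libraries, 30.4, 30.5 and 34.6 CPM in OVX, and the treated libraries had 35.5, 39.3 and 35.6 CPM, with no overlap between any of the 3 groups. Its log2FC in OVX vs. Sham was 0.57 ± 0.157 (edgeR adjusted p = 0.162). The 10 neutrophil markers summed to 12320 to 17601 CPM in Sham, 15321 to 19785 CPM in OVX and 16992 to 21826 CPM in OVX-AS-IV-High. The 9 measured monocyte and macrophage markers, for Ccr2, summed to 567 to 1030, 766 to 906 and 628 to 801 CPM. Their part in the changes of the receptors was not tested.

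**Figure D4:**
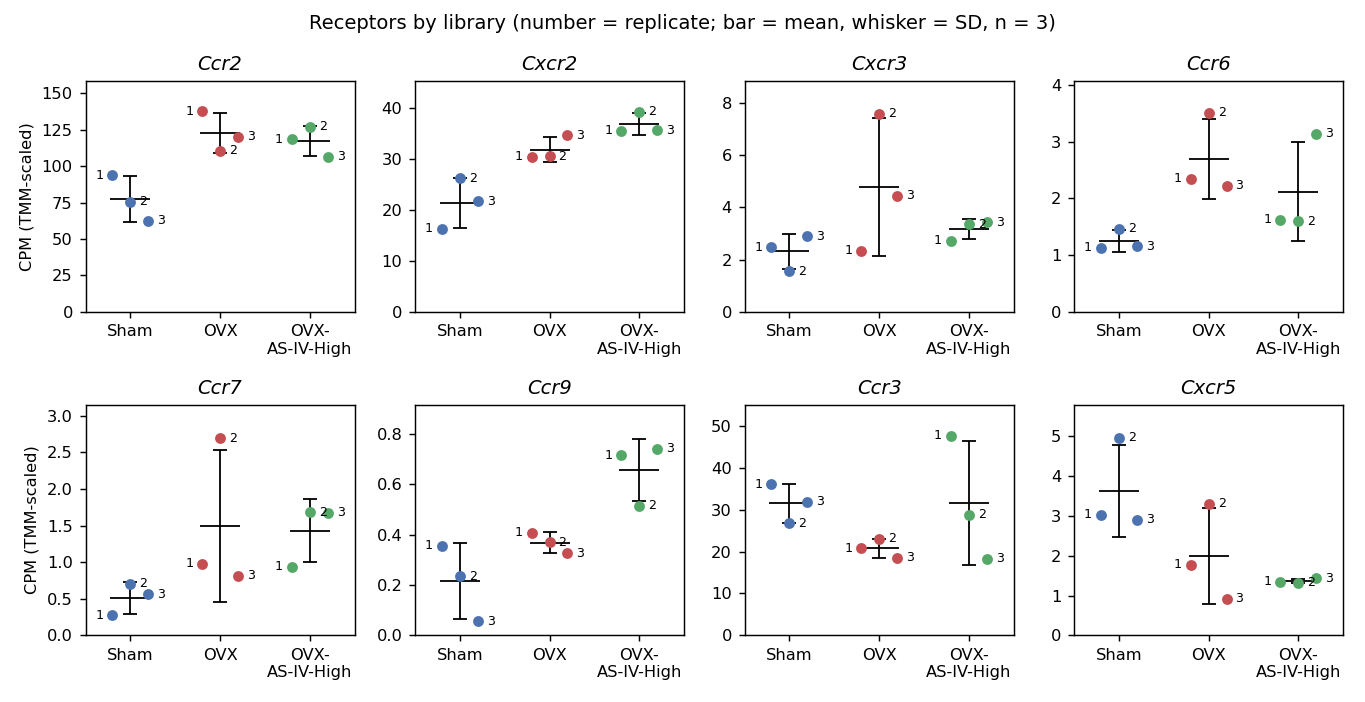
TMM-scaled CPM of 8 receptors in each library, with replicate numbers beside the points, and the mean (bar) and SD (whisker) of 3 libraries per group. The Sham libraries lie below those of both ovariectomized groups for Ccr2, Cxcr2, Ccr6 and Ccr7, and above the OVX-AS-IV-High libraries for Cxcr5.

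The lymphocyte receptors Ccr6 and Ccr7 passed the thresholds. Ccr6, carried by B cells and some T helper cells, was at 41, 50 and 41 counts in the Sham libraries and at 86, 133 and 82 in those of OVX, and the treated libraries had 59, 59 and 114. The Sham libraries lay below the others, with a log2FC of 1.11 ± 0.348 in OVX vs. Sham (edgeR adjusted p = 0.191). Without OVX replicate 2 it was 0.87, under the threshold.

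Ccr7, which guides lymphocytes and dendritic cells to lymph nodes, was at 10, 24 and 20 counts in the Sham libraries and at 36, 102 and 30 in those of OVX, and the treated libraries had 34, 62 and 61. The log2FC was 1.54 ± 0.555 (edgeR adjusted p = 0.228), and 0.80 without OVX replicate 2. The summed level of the 8 measured B lineage markers was also higher in OVX than in Sham. It was 750 to 983 CPM in Sham, 1295 to 1410 CPM in OVX and 881 to 1306 CPM in OVX-AS-IV-High. The part of these markers in the changes of both receptors was not tested.

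Cxcr3, the receptor of Cxcl9, was at 90, 53 and 103 counts in the Sham libraries and 86, 288 and 164 in OVX, with OVX replicate 1 inside the Sham range. The log2FC was 1.05 ± 0.410 (edgeR adjusted p = 0.256), and 0.56 without OVX replicate 2. Cxcr6, carried by T and NK cells, was at 10, 15 and 28 counts in the Sham libraries and 13, 241 and 13 in OVX. The log2FC was 2.23 ± 1.05 (edgeR adjusted p = 0.325), and the 2 other OVX libraries lay within the Sham range. Without OVX replicate 2 it was -0.50, the opposite sign.

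Cxcr5, which leads B cells to follicles, had a lower mean in OVX than in Sham, where the B lineage markers had a higher one. It was at 110, 169 and 103 counts in the Sham libraries and at 65, 125 and 34 in those of OVX, and the treated libraries had 49, 49 and 52. Its log2FC in OVX vs. Sham was -0.86 ± 0.429 (edgeR adjusted p = 0.345), and the groups overlapped through OVX replicate 2. Its counts are uncertain because the gene overlaps Bcl9l, as are those of Cxcr6, which overlaps Fyco1. The same limit applies to other genes of the set. Ccr7 overlaps LOC120095183, Ccl3 and Ccl6 overlap LOC103693406, and Cxcl10 and Cxcl11 overlap Art3. Ccr10 overlaps Cntnap1, Cxcl16 overlaps Zmynd15, Cxcl17 overlaps LOC120096895 and Ccl28 overlaps LOC102547360.

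Ccr1, a receptor of monocytes and osteoclast precursors, had a log2FC of 0.35 ± 0.201, Ccr10 of 0.50 ± 0.400, Ccr9 of 0.76 ± 0.566 and Ccr1l1 of -0.25 ± 0.251, each with p above 0.05.

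Several of the genes high in OVX replicate 2 are known products of T and NK cells. Relative to the median of the 9 libraries, this library held 9.76 times the Ccl5, 8.06 times the Cxcr6, 4.44 times the Ccl4, 2.87 times the Ccr7 and 2.62 times the Cxcr3. It also held 3.91 times the Cd8a, 3.66 times the Cd3e and 2.31 times the Cd2, T cell surface proteins outside the set, named after their values were seen. The whole list of 10 T and NK cell markers summed to 325 CPM there, against 192 to 286 CPM elsewhere, with 0 markers at 3 counts or fewer in each library. It was the highest library for 8 of the 10, the exceptions being Cd4 and Klrb1. It was also the highest for 4 of 8 B lineage, 5 of 8 osteoblast lineage and 3 of 6 adipocyte markers, among them Lep at 19.9 CPM against at most 6.56 elsewhere. The part of these markers was not tested. Without this library 3 genes passed the thresholds in OVX vs. Sham, namely Ccl11, Cxcl9 and Cxcr5, beside 466 of all genes.

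**Figure D5:**
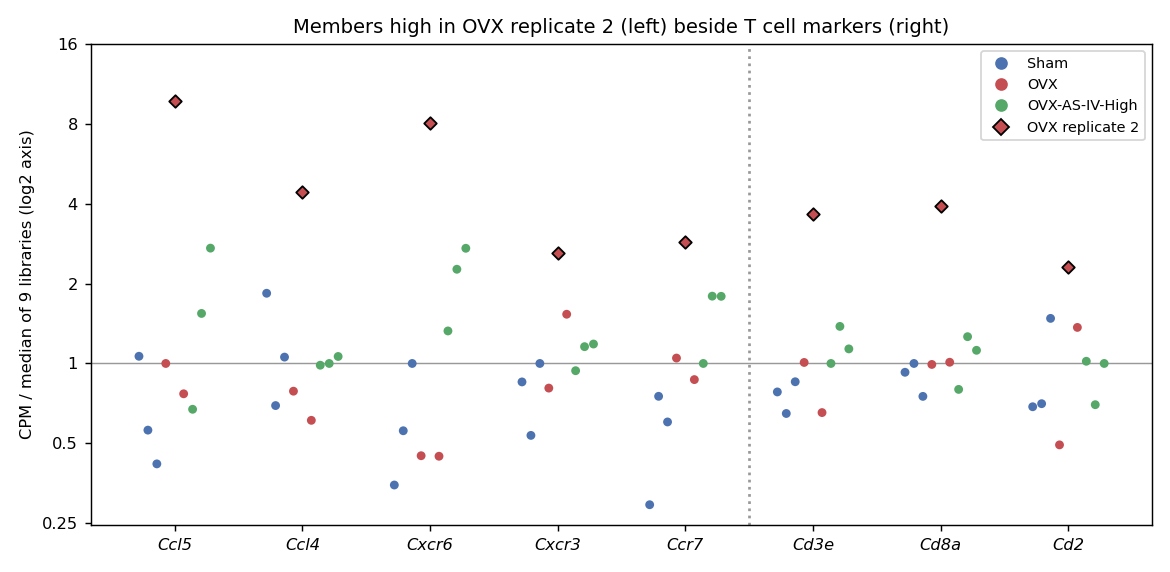
CPM divided by the median of the 9 libraries (log2 axis) for 5 genes of the set (left of the dotted line) and 3 T cell markers (right), 1 point per library. OVX replicate 2, drawn as a diamond, is the highest library for each of the 8 genes, at 9.76 for Ccl5 and 3.91 for Cd8a.

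The second comparison asked what AS-IV changed in ovariectomized rats, and it shares the OVX libraries with the first. In OVX-AS-IV-High vs. OVX, edgeR called 0 of the 36 genes by the thresholds, beside 0.83% of all genes tested, and 3 had an unadjusted p under 0.05, beside 6.45%, a share near that of all genes. An adjusted p under 0.05 was given to 0 of the 36 by edgeR, by DESeq2 and by limma, and DESeq2 gave it to 37 genes in all. The libraries of the groups did not overlap for 7 of the 36, beside 12.7% of all genes. The median log2FC was -0.07, against -0.02 over all genes. Leaving out 1 library let 1 gene pass in 5 of 9 fits, beside 161 to 219 of all genes in these 5 and 140 with all libraries. The gene was Cxcl1 without Sham replicate 1, Sham replicate 3 or OVX replicate 3. It was Cxcl17 without OVX-AS-IV-High replicate 1, and Cxcr6 without OVX replicate 2. Cxcr6 had 38, 66 and 78 counts with AS-IV, and its log2FC was -0.51 with all libraries and 2.22 without OVX replicate 2.

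The abundant tissue chemokine Cxcl14 was higher with AS-IV, at 245, 255 and 312 CPM against 162, 224 and 187 CPM in OVX. The groups did not overlap, and the log2FC was 0.50 ± 0.151 (edgeR adjusted p = 0.652). Ccl6 was at 193, 182 and 156 CPM with AS-IV against 137, 101 and 148 CPM in OVX, again without overlap (log2FC 0.46 ± 0.151, edgeR adjusted p = 0.652). Against Sham, Cxcl14 and Ccl6 of the treated libraries had log2FC of 0.18 ± 0.150 and 0.05 ± 0.151, with overlapping groups. Ccl17, a ligand of the T helper cell receptor Ccr4, was at 44, 27 and 27 counts with AS-IV against 48, 61 and 55 in OVX (log2FC -0.71 ± 0.316, edgeR adjusted p = 0.772).

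Cxcl1, a neutrophil attractant, was at 148, 104 and 142 counts with AS-IV against 32, 52 and 102 in OVX, and the groups lay apart by a narrow margin. The log2FC was 1.11 ± 0.520, and the unadjusted p missed 0.05 (edgeR adjusted p = 0.793). With the replicate number as a block it was 1.28 and passed the thresholds, though the labels do not state that the numbers pair the libraries. The same gene was called by DESeq2, by limma on log2(FPKM + 0.1), and when the 2 groups were fitted alone. The other tested ligands of neutrophil receptors, Cxcl2 and Cxcl6, had log2FC of 0.46 and 0.23 with overlapping groups.

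The genes past the thresholds in OVX vs. Sham had these log2FC in OVX-AS-IV-High vs. OVX, with overlapping groups for each. Ccl5 was at -1.22 ± 0.914, Cxcr3 at -0.60 ± 0.405, Cxcl9 at -0.38 ± 0.435 and Ccr6 at -0.35 ± 0.341. Ccr7 was at -0.06 ± 0.527, Ccl11 at 0.61 ± 0.817 and Ccl27 at 0.71 ± 0.674. Leaving out 1 library turned the sign for 4 of these. Without OVX replicate 2 it was 0.89 for Ccl5 and 0.67 for Ccr7. For Ccl11 it was -0.24 without OVX-AS-IV-High replicate 2, and for Ccl27 -0.09 without OVX-AS-IV-High replicate 1. Ccr2 was at -0.07 ± 0.152 with overlapping groups. Cxcr2 was at 0.21 ± 0.156, and each treated library lay above each OVX library.

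Ccl12, a mouse and rat relative of Ccl2, was below the filter and was not tested. Its counts were 6, 1 and 8 in the Sham libraries and 7, 6 and 17 in those of OVX, and the treated libraries had 0, 0 and 0. Against a floor of 3 counts per library, the mean of the treated libraries was at least 3.33-fold lower than that of OVX, and at least 2.17-fold lower without OVX replicate 3. Against Sham it was at least 1.67-fold lower, and at least 1.17-fold lower without Sham replicate 3. Sham replicate 2, with 1 count, lay under the floor itself. Each of these is a difference of few counts. Of the other genes below the filter, Ccl19 held 1 to 14 counts, Ccl22 held 1 to 18, and Ccl1, Ccl25, Ccl26, Ccl28, Cxcl3, Cxcl11, Ccr4, Ccr8 and Cxcr1 held under 10 in each library.

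The third comparison set the treated ovariectomized rats against Sham and shares libraries with both others. In OVX-AS-IV-High vs. Sham, 5 of the 36 genes passed the thresholds, beside 3.15% of all genes tested. Of these 3 were higher, beside 1.11%, and 2 lower, beside 2.03%. In all 7 had a p under 0.05, beside 17.6%, and the libraries did not overlap for 11, beside 19.9%. By edgeR 0 of the 36 had an adjusted p under 0.05, and Cxcr2 had the smallest. DESeq2 gave one to Ccr2, Cxcr2 and Cxcr5 and to 1009 genes in all. Limma on log2(FPKM + 1) gave one to 0 of the 36, with 7 at an unadjusted p under 0.05, for which the share of all genes was not counted.

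Cxcr5 was lower, with a log2FC of -1.40 ± 0.437 (edgeR adjusted p = 0.166), and passed in 9 of 9 fits that left out 1 library. The 49, 49 and 52 counts of the treated libraries lay well below the 103 to 169 of Sham. Ccr9, which directs T cells to the gut, was at 13, 8 and 2 counts in the Sham libraries and at 15, 14 and 12 in those of OVX, and 26, 19 and 27 with AS-IV, with a log2FC of 1.59 ± 0.556 (edgeR adjusted p = 0.201). It passed the filter mainly through the ovariectomized groups, as 1 Sham library exceeded the minimum. Ccr7 had a log2FC of 1.47 ± 0.555 and Cxcl9 one of 1.06 ± 0.453, the latter with overlapping groups. Ccl21 was lower by edgeR, at -2.28 ± 0.994 (adjusted p = 0.276), where the treated libraries held 87, 61 and 6 counts against 145 to 443 in Sham. Of the 9 fits that left out 1 library, Ccr9 passed in 8, Ccr7 in 6, Ccl21 in 5 and Cxcl9 in 2. For these genes and for Cxcr5, the 9 fits include those without an OVX library, which is not in this comparison. With either covariate Ccr9 and Cxcr5 passed and the other 3 did not, and with that of eosinophils, basophils and mast cells the log2FC of Ccr7 was 0.49.

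Without OVX-AS-IV-High replicate 3, 1 gene (Cxcr5) passed the thresholds in this comparison. Without Sham replicate 1, without Sham replicate 2 or without OVX-AS-IV-High replicate 2, 3 genes did. Over all genes these fits gave, in the order named, 410, 483, 409 and 432, against 531 with all libraries. The receptors Cxcr2 and Ccr2 had the smallest p-values, with log2FC of 0.78 ± 0.157 for Cxcr2 and 0.61 ± 0.153 for Ccr2 (edgeR adjusted p = 0.121 for Ccr2), and their treated libraries lay above the Sham libraries.

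Ligands and receptors that bind each other are set side by side here by mean FPKM and by log2FC in OVX vs. Sham. Cxcl12 and Cxcr4 were both abundant, at 204 and 170 FPKM, and both had a log2FC of 0.12. Cxcl9 and Cxcr3 were both low, at 1.99 and 2.07 FPKM, with log2FC of 1.44 and 1.05. Ccl11 and Ccr3, at 0.98 and 7.71 FPKM, had log2FC of -2.37 and -0.60.

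Of 17 pairs with both members tested, 7 had log2FC of 1 sign and 10 of opposite signs. Ccl24 and Ccr3 had log2FC of 0.53 and -0.60. Ccl2 and Ccr2, at 2.76 and 21.1 FPKM, had log2FC of -0.15 and 0.67. Ccl21 and Ccr7, at 4.63 and 0.95 FPKM, had log2FC of -1.03 and 1.54. Cxcl13 and Cxcr5, at 2.53 and 0.52 FPKM, had log2FC of 0.12 and -0.86. Ccl6 and Ccr1, at 114 and 19.9 FPKM, had log2FC of -0.41 and 0.35. No test of a difference within a pair was made.

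On the chromosomes many of these genes are neighbours, by the order in GRCr8. Ccl5, Ccl9, Ccl6, Ccl3 and Ccl4 follow each other with no other gene of the set between them, as do Ccl2, Ccl7, Ccl11, Ccl12 and Ccl1. In OVX vs. Sham the tested members of the first group had log2FC of 2.49, 0.39, -0.41, -0.32 and 0.70, and those of the second (Ccl2, Ccl7 and Ccl11) of -0.15, 0.13 and -2.37. Neighbours thus had values of both signs. The neighbouring receptors Ccr9, Cxcr6, Ccr1, Ccr3, Ccr1l1 and Ccr2 also held both signs, from -0.60 for Ccr3 to 2.23 for Cxcr6. Some of these values rested on OVX replicate 2. Without it Ccl5 was at 0.38, Ccl4 at -0.77 and Cxcr6 at -0.50. Both signs remained among these ligands and receptors, with Ccl9 at 0.75 and Ccr2 at 0.74. Ccr1l1 overlaps Ccr3, so that reads of these receptors may have been shared between them.

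A list of 28 other genes of the chemokine system held atypical receptors, signalling proteins and ligands outside the name rule, of which 26 were tested. In OVX vs. Sham 0 passed the thresholds by edgeR, beside 3.11% of all genes, and 11 had an unadjusted p under 0.05, beside 16.4%, with 10 of them higher. DESeq2 and limma counts were not made for this list. The signalling protein Dock2, which drives the migration of lymphocytes and neutrophils, was at 6.05, 5.83 and 6.09 FPKM in the Sham libraries, 8.42, 8.90 and 9.22 FPKM in OVX, and the treated libraries had 7.10, 7.27 and 8.14 FPKM. Its log2FC was 0.54 ± 0.083 in OVX vs. Sham (edgeR adjusted p = 0.118), while AS-IV against OVX gave -0.20 ± 0.082 (edgeR adjusted p = 0.737).

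Ackr4, a scavenger receptor that removes Ccl19, Ccl21 and Ccl25, was at 7.05, 6.68 and 9.19 FPKM in the Sham libraries, 10.9, 11.6 and 11.5 FPKM in OVX, and the treated libraries had 6.64, 8.17 and 6.30 FPKM. The OVX libraries lay above both other groups. The log2FC was 0.54 ± 0.153 in OVX vs. Sham (edgeR adjusted p = 0.167), while AS-IV against OVX gave -0.65 ± 0.153 (edgeR adjusted p = 0.652). Both genes were named after their values were seen. Ackr2, a scavenger of inflammatory CC ligands, passed the thresholds in OVX-AS-IV-High vs. Sham (log2FC -1.14 ± 0.420, edgeR adjusted p = 0.217). It was 1 of the 26 tested, beside 3.15% of all genes. It was at 0.36, 0.32 and 0.29 FPKM in Sham, 0.30, 0.24 and 0.13 FPKM in OVX, and 0.16, 0.21 and 0.07 FPKM with AS-IV. The log2FC was -0.56 ± 0.413 in OVX vs. Sham. AS-IV against OVX gave -0.58 ± 0.419 with overlapping groups.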

How the data were processed

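RNA of bone from 9 rats (Sham, OVX and OVX-AS-IV-High, 3 libraries each) was sequenced by the authors from poly(A)-selected, strand-specific libraries. Per the methods of the study, low-quality reads were removed, the rest aligned with Tophat and Bowtie2 and quantified with eXpress. The build is mRatBN7.2 per the submitters' processing notes. The deposited files hold 23026 genes, as raw counts in whole numbers and as FPKM. How the estimates became whole numbers is not given in the sources used here.

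For differential expression edgeR 4.0.16 (R 4.3.3) was run on the counts (glmQLFit and glmQLFTest, TMM scaling, filterByExpr at a minimum count of 10), and 16874 genes entered the joint fit of all 9 libraries. The study used a negative binomial test and the thresholds in its results were kept, an unadjusted p under 0.05 with an absolute log2FC over 1, while its methods state 0.58. Adjusted p-values are Benjamini-Hochberg over all genes tested. Replicates are separate samples per the labels. For 3 against 3 libraries an exact permutation test cannot go below 0.1, so it could not reach 0.05. The script was tested on simulated data.

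Alternatives were RLE size factors, other filters, DESeq2 1.42.0, limma 3.58.1 on log2(FPKM + 1) or + 0.1, 2 groups alone, a replicate block, a log2FC threshold of 0.58 and leaving out each library. Covariates of summed skeletal muscle markers and of summed eosinophil, basophil and mast cell markers, and the promoters shown, were chosen after seeing the data. The members and lists were chosen with earlier results of these data known. Named genes are members past the thresholds in any comparison, the 3 highest by mean FPKM in each role list, the 5 smallest p in each of the first 2 comparisons, and untested members with 10 or more counts in a library. Others are described by level or log2FC within their role.

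Deviations of same-numbered libraries from their group means correlated at 0.381, 0.211 and 0.187 between OVX and OVX-AS-IV-High. For OVX and Sham they were 0.244, -0.192 and 0.307, and for OVX-AS-IV-High and Sham 0.444, -0.231 and 0.558. Libraries of different numbers were not compared in this way. The values therefore cannot show whether the numbers, which come from the sample titles, pair any groups, and the main fits used no block. Promoter sequences and gene order came from RefSeq tables of build GRCr8, matched by gene identifier, and no coordinates were converted. Protein sequences were not used here, and some single-gene results are not reported here and not drawn in the plots.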

Additional observations from a re-analysis of the deposited data

How the results depend on the processing

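By the thresholds, 7 of the 36 genes passed after ovariectomy, 0 with AS-IV against OVX, and 5 with AS-IV against Sham. Over all genes the main fit had 525 in OVX vs. Sham. There the count was 1 with limma on log2(FPKM + 1) and 3 with log2(FPKM + 0.1), beside 75 and 315 of all genes. With the muscle covariate 1 of the 7 (Cxcl9) passed, beside 379 of all genes. With the eosinophil, basophil and mast cell covariate 3 other genes (Ccr2, Cxcl10 and Cxcr5) and 0 of the 7 passed, beside 397. Leaving out 1 library gave 3 to 9, beside 387 to 1064 of all genes. It was 3 without OVX replicate 2 (466 of all genes) and 4 without Sham replicate 2 (387). In OVX-AS-IV-High vs. OVX it was 2 without a filter on low counts (Cxcl1 and Ccl12), beside 274 of all genes and 140 in the main fit. It was 1 (Cxcl1) with the replicate block, DESeq2, log2(FPKM + 0.1) and the 2 groups alone, beside 153, 151, 80 and 135. Each covariate also gave 1 (Cxcl1), beside 186 with muscle and 140 with the other. A log2FC threshold of 0.58 gave 1 (Ccl17), beside 369. Leaving out 1 library gave 0 to 1, beside 141 to 219 of all genes. In OVX-AS-IV-High vs. Sham it was 9 without a filter and 1 with log2(FPKM + 1), beside 769 and 84 of all genes and 531 in the main fit. It was 2 with each covariate, beside 437 with muscle and 511 with the other. Leaving out 1 library gave 1 to 7, beside 409 to 940. The causes were not tested.

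With the replicate block 6 genes passed in OVX vs. Sham, losing Ccl5 and Cxcr3 and adding Ccl21, beside 705 of all genes. In OVX-AS-IV-High vs. Sham the block gave 6, beside 711 of all genes. For the named genes, 1363 of 1464 values kept their direction or had no call to lose and stayed on their side of the thresholds, 70 no longer passed, 31 newly passed and 0 called values changed sign. Over all genes, counts in OVX vs. Sham went from 525 to 342 with a minimum of 1 CPM in 3 libraries, 791 with no filter, 75 with log2(FPKM + 1), 315 with log2(FPKM + 0.1) and 1174 at a log2FC of 0.58. With 3 libraries per group and 22 of the 48 genes under 1 FPKM, depth and spread limit what could be called.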
